A study of Drosophila melanogaster with 6 samples.

Results

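Transcripts that mark neurons, synapses and glia were followed through RNA sequencing libraries of dissected body wall muscle from *Drosophila* larvae, to describe what each dissection holds of them. The 8 genes (elav, nSyb, brp, Syt1, VGlut, cpx, Ace and repo) were chosen by symbol, and each matched 1 identifier among the 17477 genes of the count table. The control group was w1118 larvae and the exercised group was OK6-Gal4bc > CsChrimbc larvae (3 libraries each), of mixed sex and at the third larval instar. OK6-Gal4bc drives the red-light-gated cation channel CsChrimson in motor neurons and, per the study, in a subset of CCAP neurons, so the driver is not restricted to the neurons that reach muscle. The exercised larvae carried 1 copy of each transgene, the transgenic stocks derive from repeated crosses to this same w1118 line, both groups were kept on food with all-trans retinal overnight, and both received 2 h of light pulses, so that genotype and exercise differ together and cannot be told apart. RNA came from cuticle preparations, and the muscle dissection that the study describes opens the larva ventrally and takes the internal organs out. For larvae that contracted under white light it describes dimmer light and renewed pinning, so the handling of the groups may have differed. How many larvae were pooled in a library is not stated.

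The cell bodies of the motor neurons lie in the ventral nerve cord, which is among the internal organs, while their axons and terminals stay on the muscles. The cell bodies of the sensory neurons, which use acetylcholine, lie in the body wall itself, and peripheral glia wrap the segmental nerves.

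The libraries were those of muscle. The muscle actin gene Act57B took 4.16 to 4.50% of all counts, and 13 matched sarcomere and muscle genes together took 14.9 to 16.6% of the TMM-scaled counts. By contrast, the 8 neuronal and glial genes together took 0.00452 to 0.00743% of the counts, or 947 to 1770 counts in a library of 19625425 to 23953341. Midgut genes were near 0 (summed level 0.0517 to 0.646 CPM). The summed level of 6 fat body genes, carried by Lsp1alpha, Lsp1beta and apolpp, was 550.5 and 411 CPM in control replicates 1 and 2, 3608 CPM in control replicate 3 and 3385 to 4326 CPM in the exercised libraries, so control replicate 3 stands apart from its group in this sum. The scarcer fat body genes Lsp2 and Fbp1 were lower in all control libraries, replicate 3 included (Lsp2 1.20 to 11.4 against 21.4 to 34.6 CPM, Fbp1 0 to 0.0913 against 1.67 to 9.02 CPM), and Fbp1 was the 1 of the 6 that passed (adjusted p = 0.00608). Of 6 hemocyte genes, NimC1 passed as higher (2.497 to 4.47 against 19.2 to 31.8 CPM). The others did not pass, with log2 fold changes of exercised against control of 0.15 for crq and -0.59 to -0.37 for Ppn, eater, Hml and Pxn. The summed level of the 6 genes overlapped (780 to 1406 against 746 to 1094 CPM). Each of the fat body and hemocyte lists thus had 16.7% of its tested genes passing as higher, against 10.3% of all tested genes. The part of these cell types in the results was not tested. Levels are given as CPM, the usual depth-scaled unit of counts, with library totals scaled by TMM.

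elav (FBgn0260400, chromosome X from 509235 to 523226 of release 6), which encodes the RNA-binding protein used as the standard marker of neuronal nuclei, was the steadiest of the 8 genes. It was at 24.0, 24.9, 22.0 CPM across control replicates 1 to 3, against 20.1, 22.8, 22.6 CPM across exercised replicates 1 to 3. The groups overlapped, and the highest library exceeded the lowest by only 1.24 times. The log2 fold change of exercised against control larvae was -0.11 (95% interval -0.34 to 0.11, adjusted p = 0.448 from edgeR). Of the exon length of elav, 27.9% also lies in the noncoding gene lncRNA:enrr on the same strand, and the handling of reads in shared exons is not stated.

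Genes of the presynaptic machinery varied more between the libraries of a group. nSyb (FBgn0013342, chromosome 3L from 1630348 to 1637752) encodes neuronal synaptobrevin, the vesicle partner in membrane fusion. It was at 9.17, 7.84, 6.80 CPM across control replicates 1 to 3, against 4.01, 3.36, 7.85 CPM across exercised replicates 1 to 3. Exercised replicate 3 lay within the control range while the other exercised libraries lay below it. The log2 fold change was -0.64 (95% interval -1.39 to 0.11, adjusted p = 0.210), and without exercised replicate 3 it was -1.11 and passed (adjusted p = 0.0234). brp (FBgn0259246, chromosome 2R from 9503765 to 9541565) encodes Bruchpilot, the scaffold of the active zone. It was at 5.90, 4.52, 2.28 CPM across the control libraries, against 2.01, 2.33, 3.63 CPM across the exercised ones. Control replicate 3 was thus at the level of exercised replicates 1 and 2, and exercised replicate 3 was above it. The log2 fold change was -0.67 (95% interval -1.56 to 0.21, adjusted p = 0.261), and it moved to -0.36 without control replicate 1 and to -0.97 without exercised replicate 3 without passing.

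cpx (FBgn0041605, chromosome 3R from 4280221 to 4304604) encodes complexin, which clamps vesicle fusion until calcium enters. It was at 13.3, 13.8, 9.59 CPM across control replicates 1 to 3, against 8.36, 7.70, 12.8 CPM across exercised replicates 1 to 3. As for brp, control replicate 3 was the lowest control library and exercised replicate 3 the highest exercised library. Its log2 fold change was -0.35 (95% interval -0.88 to 0.19, adjusted p = 0.337), and it was -0.21 without exercised replicate 2 and -0.61 without exercised replicate 3. Syt1 (FBgn0004242, chromosome 2L from 2772327 to 2799979) encodes synaptotagmin 1, the calcium sensor of vesicle release. It was at 7.29, 5.54, 9.04 CPM across the control libraries, against 4.87, 6.31, 8.97 CPM across the exercised ones. Control replicate 3 was here the highest library, so Syt1 did not order the control libraries as brp and cpx did. Its log2 fold change of -0.12 (95% interval -0.73 to 0.49, adjusted p = 0.801) turned to 0.08 without control replicate 3 and to 0.07 without exercised replicate 1.

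VGlut (FBgn0031424, chromosome 2L from 2400295 to 2410662) separated the libraries far more than it separated the groups. It encodes the vesicular glutamate transporter, which loads the transmitter of fly motor neurons. It had 61, 27 and 2 counts in control replicates 1 to 3 and 1, 1 and 46 counts in exercised replicates 1 to 3. In CPM these are 2.497, 1.25 and 0.0913 in control and 0.0478, 0.0517 and 2.14 in exercised libraries. Each group thus held libraries with VGlut and libraries almost without it. Control replicate 1 exceeded control replicate 3 by a ratio of 27.4 (95% counting interval 7.25 to 230.9), and exercised replicate 3 exceeded exercised replicate 1 by 44.7 (7.64 to 1805). These intervals cover counting error only. The log2 fold change between the groups was -0.76, with a 95% interval of -4.45 to 2.92 that holds large changes in both directions (adjusted p = 0.770). It was 0.18 without control replicate 1 and -4.55 without exercised replicate 3 (adjusted p = 0.965 and 0.152).

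**Figure D1:**
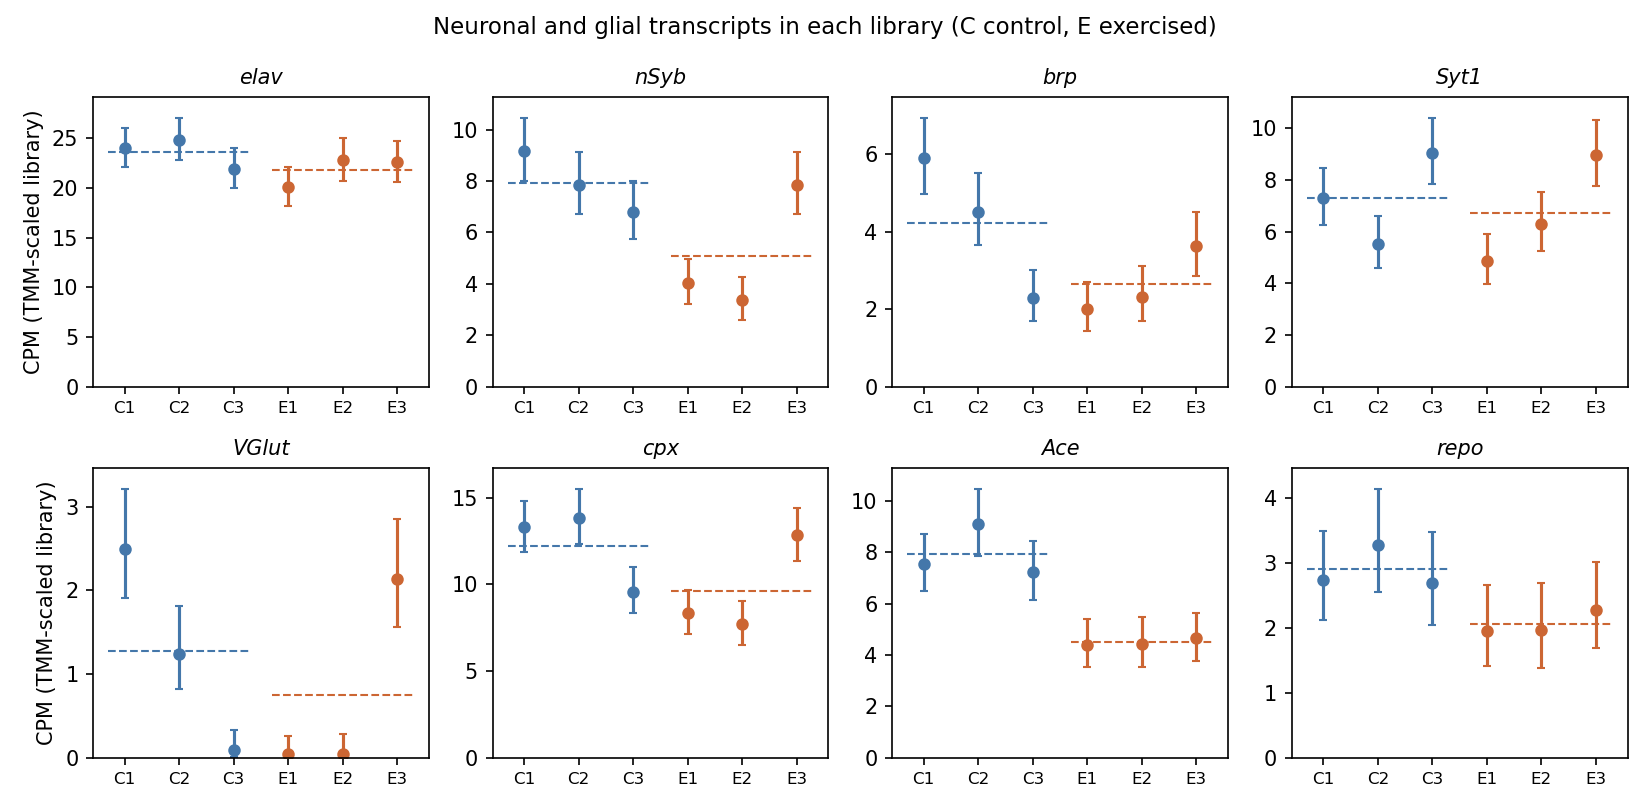
Level of each of the 8 genes in every library, in CPM of the TMM-scaled library. Points are libraries (C1 to C3 control, E1 to E3 exercised), bars are 95% counting intervals of the counts and dashed lines are group means. VGlut was near 0 in C3, E1 and E2, elav was nearly level, and Ace was lower in each exercised library than in any control library.

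Ace was the 1 gene of the 8 that passed the threshold on adjusted p, and it was lower in exercised larvae. Ace (FBgn0000024, chromosome 3R from 13222951 to 13259517) encodes acetylcholinesterase, the enzyme that breaks down acetylcholine at cholinergic synapses. It was at 7.53, 9.09, 7.21 CPM across control replicates 1 to 3, against 4.40, 4.44, 4.65 CPM across exercised replicates 1 to 3. The groups did not overlap, and exercised replicate 3 did not stand above its group as it did for VGlut, nSyb, brp and cpx. On the log2 scale Ace moved by -0.82 (SE 0.14, 95% interval -1.14 to -0.50, adjusted p = 0.00684). The call was kept under each of 15 alternative settings, with log2 fold changes of -0.88 to -0.71 and adjusted p of 0.000952 to 0.0333. Without control replicate 3, which was at the exercised level in the summed fat body genes but not in Fbp1 or Lsp2, it was -0.87 (adjusted p = 0.0138). In bulk libraries, fewer cells of a type and less RNA per cell cannot be told apart.

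repo (FBgn0011701, chromosome 3R from 18236192 to 18239602), a homeobox gene that marks the nuclei of nearly all glia other than those of the midline, was at a low level in every library. It was at 2.74, 3.28, 2.69 CPM across control replicates 1 to 3, against 1.96, 1.96, 2.28 CPM across exercised replicates 1 to 3. The groups did not overlap, but the log2 fold change of -0.49 did not pass over all tested genes (95% interval -0.95 to -0.03, unadjusted p = 0.0412, adjusted p = 0.132). The values of repo rest on few reads, 197 counts in all 3 control libraries and 128 in all 3 exercised ones. Of its exon length, 6.11% is shared with CG7156 on the opposite strand.

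Set side by side, all 8 genes passed the low-count filter and all 8 had a negative log2 fold change, with a median of -0.57, where the median of all 9127 tested genes was -0.01 and 52.1% were negative. The genes share libraries, so these directions are not separate results. Of the 8 genes, 1 was called lower and none higher, while 8.52% of all tested genes were called lower and 10.3% higher (2 of the 8 had an unadjusted edgeR p under 0.05, DESeq2 and limma-voom also called 1 lower and 0 higher, and nSyb joined Ace without exercised replicate 3). The count of calls is close to that of all genes. Of all 9127 tested genes, 3035 had an unadjusted edgeR p under 0.05, which is the background for such counts here and below. The CPM ranges of the groups did not overlap, with exercised lower, for 2 of the 8 genes (Ace and repo) and for 19.4% of all tested genes (39.2% in either direction), so this count too is near the background.

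**Figure D2:**
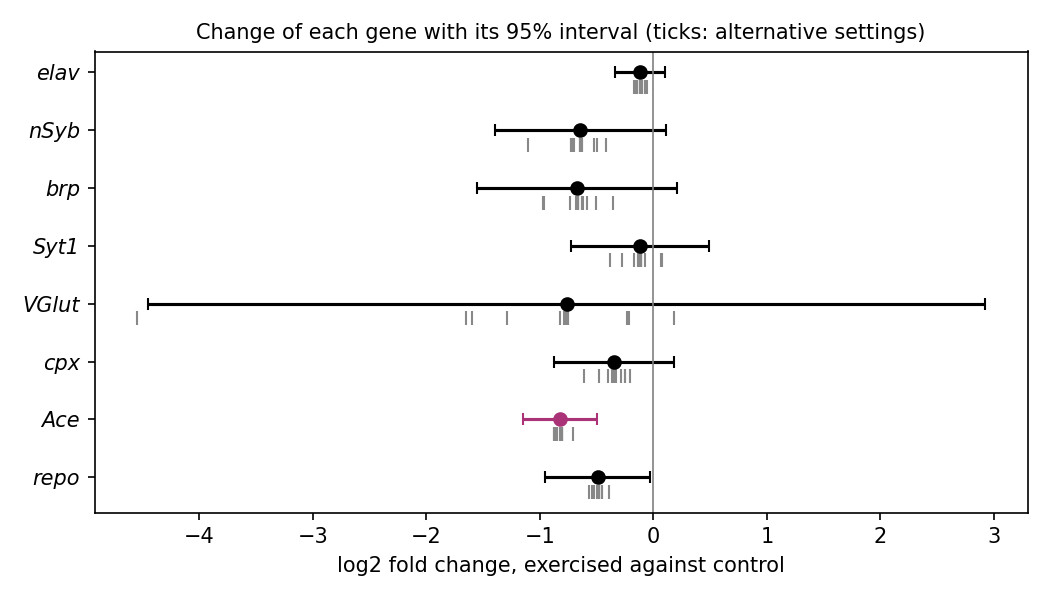
Log2 fold change of exercised against control larvae for each of the 8 genes (points, from edgeR) with its 95% interval. Grey ticks are the values under the alternative settings and the purple point passed at an adjusted p under 0.05. Only Ace passed, and the interval of VGlut ran from -4.45 to 2.92.

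The 8 genes also differed in how far they spread between replicates. edgeR's biological coefficient of variation (BCV), the relative spread between replicates beyond counting, was 1.30 for VGlut, higher than for 99.9% of the tested genes. It was 0.33 for brp, 0.28 for nSyb, 0.24 for Syt1 and 0.21 for cpx, each above the median of all tested genes (0.14). Ace lay at 0.14 and repo at 0.17. elav, at 0.11, had a higher BCV than only 13.7% of tested genes, so elav and VGlut lay at opposite ends of the 8. Not every gene found in most neurons was as steady as elav. The BCV of 9 others, listed below, ran from 0.11 (Rbp9) to 0.45 (onecut), with a median of 0.17. Within its own group, exercised replicate 3 was the highest exercised library for 7 of the 8 genes (not for elav), against 24.1% of all tested genes. Control replicate 3 was the highest control library for 1 of the 8 (Syt1), against 38.9% of all tested genes.

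**Figure D3:**
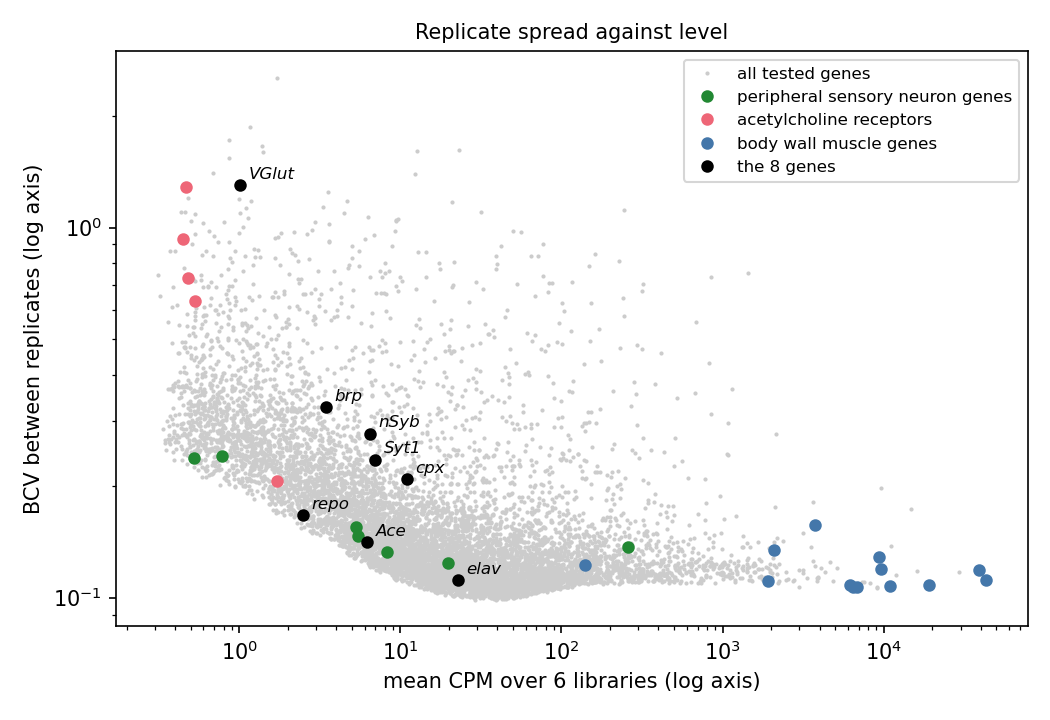
BCV between replicates against the mean CPM over 6 libraries, both on log axes, for all tested genes (grey), the 8 genes (black, named), genes of peripheral sensory neurons (green), acetylcholine receptor genes (red) and body wall muscle genes (blue). VGlut, at a BCV of 1.30, and 4 of 5 tested receptor genes, at 0.633 to 1.285, lay near the top of the plot, while elav, at 0.11, lay among the bulk.

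Per kilobase of annotated exon, the order of the mean levels was elav, nSyb, Syt1, cpx, repo, Ace, brp and VGlut. elav was at 2.12 CPM per kb and VGlut at 0.177 CPM per kb, over 6 libraries, whereas Act57B was at 25040 CPM per kb. nSyb followed elav at 1.60 CPM per kb, and then Syt1 (0.974), cpx (0.958), repo (0.830) and Ace (0.734 CPM per kb) lay close together. The ranges over the libraries of neighbours in this order overlapped for each pair but Ace and brp, where brp (0.150 to 0.441 CPM per kb) lay below Ace (0.519 to 1.07). Exon lengths are those of the annotation used here, which need not be the one used for counting.

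The summed level of the 8 genes was 72.5, 70.2 and 59.7 CPM in control replicates 1 to 3 and 45.7, 48.9 and 64.9 CPM in exercised replicates 1 to 3. Control replicate 3 and exercised replicate 3 thus crossed over, and the groups overlapped. The mean was 67.5 ± 6.82 CPM in control and 53.2 ± 10.3 CPM in exercised larvae (SD, n = 3 libraries each), a ratio of 0.789. With elav left out, the ratio was 0.716. The sum gives more weight to abundant genes. When each gene was scaled to its own mean first, the ratio was 0.710.

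Other genes of neurons and glia, taken from lists of 104 matched genes, are given here by list. Of these, 69 passed the low-count filter, 4 passed as higher, 4 passed as lower and 61 stayed above the threshold. That is 5.80% in each direction, against 10.3% higher and 8.52% lower among all tested genes. The median log2 fold change of the 69 was -0.38. Exercised replicate 3 was the highest exercised library for 60.9% of the 69 genes and control replicate 1 the highest control library for 55.1%, against 24.1% and 31.2% of all tested genes.

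Several genes of transmitters, their receptors and neuropil glia were highest in the same library of each group as VGlut. The genes named in this paragraph were chosen after their values were seen. Gad1, which makes GABA, had 71, 31 and 0 counts in control replicates 1 to 3 and 0, 2 and 56 in exercised replicates 1 to 3. Proc, which encodes the neuropeptide proctolin of some motor neurons, had 77, 15 and 11 counts in control and 1, 2 and 56 in exercised replicates. The nicotinic receptor gene nAChRalpha1 had 35, 13 and 0 counts in control and 0, 3 and 13 in exercised replicates, and alrm, a marker of astrocyte-like glia of the central neuropil, had 33, 20 and 2 in control and 2, 3 and 20 in exercised replicates. In each of these 4 genes the highest control library was replicate 1 and the highest exercised library was replicate 3, as for VGlut. Other genes of the same lists had other orders. The highest control library was replicate 2 for tup and CCAP and replicate 3 for SerT. Over the tested genes of the lists that hold these 4, the Pearson r with VGlut ran from -0.189 (loco) to 0.982 (alrm). The BCV of the 5 tested acetylcholine receptor genes had a median of 0.73. None of the 5 passed (adjusted p = 0.530 for nAChRalpha1, 1 of 5 had an unadjusted p under 0.05), and their log2 fold changes of -1.40 to -0.66 have a median of -0.93.

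Of 7 tested genes of sensory neurons none passed (edgeR, with 2 at an unadjusted p under 0.05), and their BCV had a median of 0.15, with 0.24 for TrpA1 and unc. Piezo, a mechanically gated channel that is also made in other tissues, was the most expressed of this list, at 239, 257, 263 CPM across the control libraries, against 223, 302, 268 CPM across the exercised ones. The other genes of this paragraph were named after their values were seen. ppk and ppk26, which encode channel subunits of the nociceptive dendritic neurons, did not share a pattern. ppk was at 5.94, 5.17, 7.12 CPM across the control libraries, against 4.73, 4.55, 4.28 CPM across the exercised ones (log2 fold change -0.43, adjusted p = 0.107), while ppk26 lay between 4.64 and 6.00 CPM in all libraries (log2 fold change -0.04, adjusted p = 0.891). nompC, a channel of touch and stretch receptors, was at 9.38, 8.90, 9.72 CPM across the control libraries, against 8.27, 6.67, 6.64 CPM across the exercised ones (log2 fold change -0.38, adjusted p = 0.0833). The groups thus did not overlap for ppk and nompC, both lower in exercised larvae, as for 19.4% of all tested genes, and overlapped for ppk26. Whether the change of ppk differs from that of ppk26 was not tested. The median log2 fold change of the 7 genes was -0.07. The summed level of the sensory list was 296 ± 12.7 CPM in control and 303 ± 41.4 CPM in exercised larvae (SD, n = 3 each), most of it Piezo, and without Piezo it was 42.9 ± 0.402 against 38.6 ± 1.91 CPM.

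**Figure D4:**
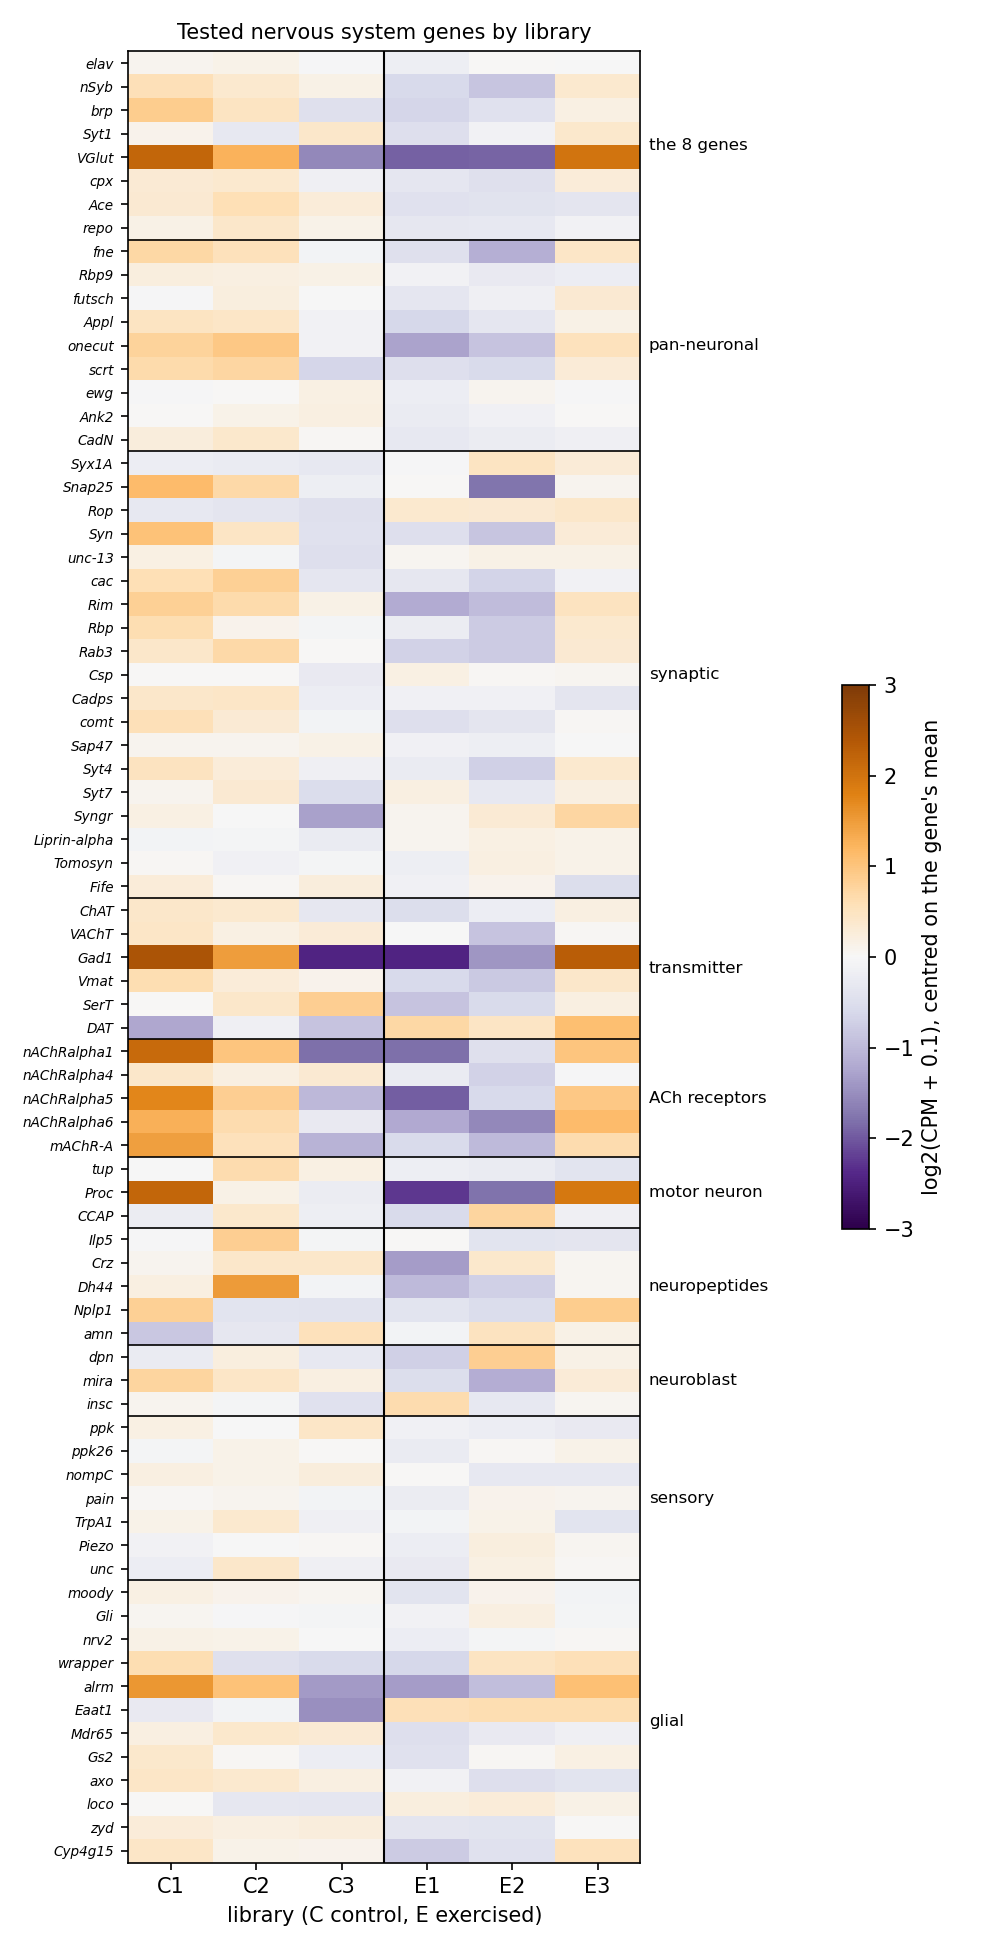
Level of each tested nervous system gene in each library (columns, C1 to C3 control and E1 to E3 exercised), as log2(CPM + 0.1) centred on the mean of the gene, with orange high and purple low and the color scale ending at 3 in either direction. VGlut, Gad1, nAChRalpha1 and alrm were high in C1 and E3 and low in C3, E1 and E2, and Proc was highest in C1 and E3 and lowest in E1 and E2.

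Among other genes found in most neurons, Rbp9 and CadN were lower in exercised larvae and the other 7 of 9 did not pass (22.2% lower, against 8.52% of all tested genes). Rbp9, an RNA-binding protein of the same family as elav, was the most expressed of the list, at 188, 185, 177 CPM across the control libraries, against 149, 134, 139 CPM across the exercised ones. The log2 fold change was -0.38 (adjusted p = 0.0122), with adjusted p of 0.0526 without control replicate 2 and 0.0721 without exercised replicate 3. Per kilobase of exon, Rbp9 was at 20.1 CPM against 2.12 for elav, and whether its reads come from neurons was not tested. CadN, which encodes N-cadherin, an adhesion protein of axons, fell by 0.45 (adjusted p = 0.0433), but it passed in only 6 of 15 alternative settings. With all libraries it had an adjusted p of 0.0668 by DESeq2, 0.0505 by limma-voom, 0.0560 with no low-count filter and 0.115 with the replicate block, and among fits with a library left out it passed only without control replicate 3 (adjusted p up to 0.153). All 9 had negative log2 fold changes, with a median of -0.45. The para and wupA genes of the lists matched no identifier under their current symbols and were not analysed here.

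Rop and Syx1A were higher in exercised larvae, the only calls among 19 tested synaptic genes and a share (10.5%) like that of all tested genes (10.3%). Both encode parts of the vesicle fusion machinery, a Sec1/Munc18 protein and syntaxin, that serve secretion in many cell types besides neurons. Rop was at 57.2, 55.0, 51.2 CPM across the control libraries, against 91.3, 89.7, 93.3 CPM across the exercised ones. The rise of 0.75 on the log2 scale (SE 0.07, adjusted p = 0.000843) passed under each of the 15 alternatives. Syx1A, the most expressed of the list, was at 64.6, 62.6, 61.4 CPM across the control libraries, against 72.6, 105, 92.1 CPM across the exercised ones. Its log2 fold change was 0.52 (adjusted p = 0.0312), and it passed without exercised replicate 1 but not without any other library (adjusted p up to 0.103). Of the synaptic genes, 0 passed as lower and 17 stayed above the threshold, with a median log2 fold change of -0.37. An unadjusted edgeR p under 0.05 was held by 6 of the 19, against 3035 of all 9127 tested genes. The summed level of the synaptic list was 377 ± 27.9 CPM in control and 448 ± 23.2 CPM in exercised larvae (SD, n = 3 each), higher in the exercised group although 11 of the 19 log2 fold changes were negative. Rop (mean 54.5 CPM in control and 91.4 CPM in exercised larvae) and Syx1A (62.9 and 89.95 CPM) had the largest rises within this sum. stnB of this list had 0 counts in every library, and its exons lie wholly (100%) in those of stnA.

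The partners of Ace in the cholinergic system did not pass. ChAT, which makes acetylcholine, and VAChT, which loads it into vesicles, were named after their values were seen. ChAT was at 2.33, 2.26, 1.37 CPM across the control libraries, against 1.20, 1.499, 2.00 CPM across the exercised ones (log2 fold change -0.35, adjusted p = 0.501). VAChT was at 3.23, 2.68, 2.92 CPM across the control libraries, against 2.34, 1.24, 2.42 CPM across the exercised ones (log2 fold change -0.55, adjusted p = 0.215). Both share exons (606 bases), so reads there cannot be assigned to either. nAChRalpha4, the most expressed receptor gene, gave -0.66 on the log2 scale (adjusted p = 0.132), and nAChRbeta3 had 0 counts in every library, but its exons lie wholly (100%) in those of Ets21C on the opposite strand. CPM ranges did not overlap for VAChT and nAChRalpha4, both lower in exercised larvae, as for 19.4% of all tested genes, and overlapped for ChAT. Whether the change of Ace differs from that of ChAT or VAChT was not tested.

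Of the 6 tested genes of the transmitter list, which holds ChAT and VAChT, 1 passed as higher and 5 did not pass. That is 16.7% higher, against 10.3% of all tested genes. The higher one was DAT, the dopamine transporter gene, which was scarce, with 3, 8 and 4 counts in control and 16, 12 and 22 counts in exercised replicates 1 to 3 (log2 fold change 1.83, adjusted p = 0.0410). It passed without control replicate 2 but not when any other library was left out (adjusted p up to 0.157). SerT, the serotonin transporter gene, was the most expressed of this list (log2 fold change -0.83, adjusted p = 0.134).

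Among other glial genes, Mdr65 and axo were lower and loco was higher. Mdr65, a transporter of the blood-brain barrier, was at 14.1, 16.0, 15.3 CPM across the control libraries, against 8.65, 10.1, 10.97 CPM across the exercised ones, and its log2 fold change was -0.61 (adjusted p = 0.0122, and 0.0520 without control replicate 2). axo, which encodes the secreted glial protein axotactin, was at 20.6, 19.4, 17.5 CPM across the control libraries, against 14.1, 10.8, 11.5 CPM across the exercised ones, and its log2 fold change was -0.66 (adjusted p = 0.0113, and 0.0614 without exercised replicate 3). loco, a regulator of G protein signaling first known from glia, was higher (log2 fold change 0.43, adjusted p = 0.0345), but not without control replicate 2 or 3 or any exercised replicate (adjusted p up to 0.117). Gli, which encodes gliotactin of the junctions of glia and epithelia, was the most expressed of the list, at 79.5 to 97.1 CPM (log2 fold change 0.03, adjusted p = 0.879). Of 12 tested glial genes, 1 passed as higher, 2 passed as lower and 9 stayed above the threshold (8.33% and 16.7%, against 10.3% and 8.52% of all tested genes), with a median log2 fold change of -0.20. Their summed level was 294 ± 24.3 CPM in control and 279 ± 22.2 CPM in exercised larvae.

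**Figure D5:**
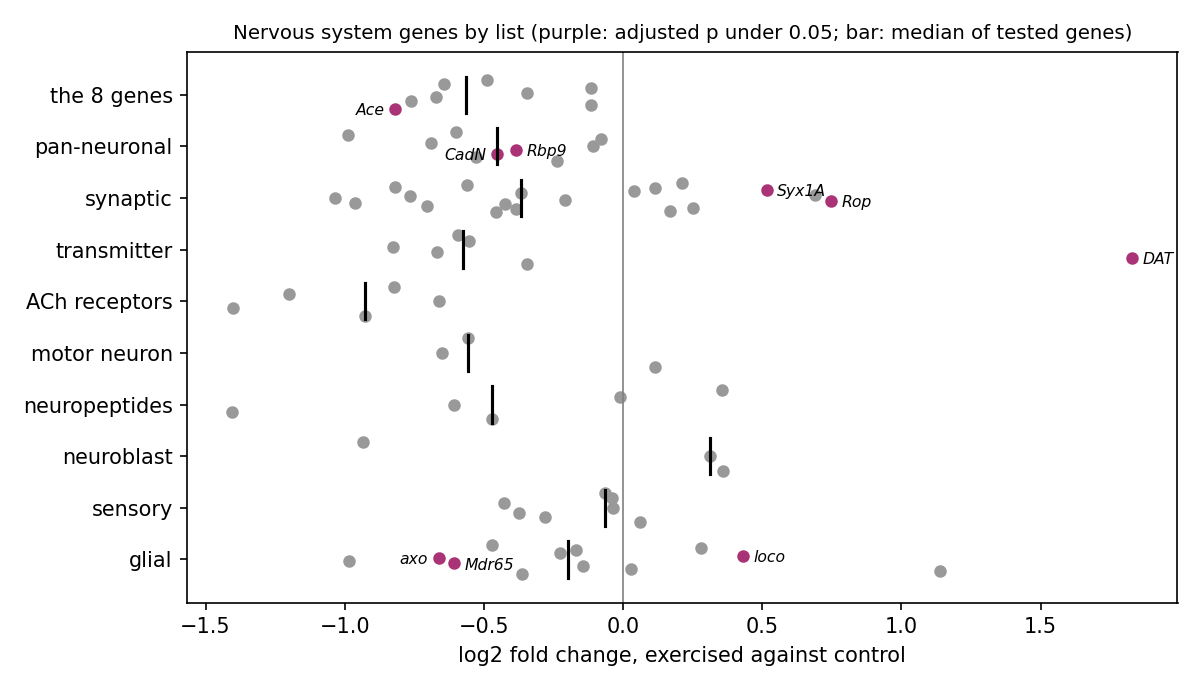
Log2 fold change of exercised against control larvae for each tested gene of the 8 genes and of each nervous system list. Purple points passed at an adjusted p under 0.05 and are named, grey points did not pass, and black bars are medians. The medians lie below 0 in each list but that of neuroblast genes, and the lists of sensory neuron and glial genes have medians of -0.07 and -0.20.

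Of 17 neuropeptide genes, 12 had too few counts for the test, 1 (Lk, of whose exons 93% lie in an antisense RNA) had 0 counts throughout and none of the 5 tested passed (0 at an unadjusted edgeR p under 0.05). The most expressed, Nplp1, was at 3.36, 1.38, 1.37 CPM across the control libraries, against 1.39, 1.24, 3.44 CPM across the exercised ones, again highest in control replicate 1 and exercised replicate 3. Among 7 motor neuron factors and peptides, 3 were tested and none passed (1 at an unadjusted p under 0.05). tup, a homeobox gene with roles in other tissues too, was the most expressed of them at 7.34 to 15.0 CPM and gave -0.56 on the log2 scale (adjusted p = 0.0678). Of 5 neuroblast genes, 3 were tested and none passed (0 at an unadjusted p under 0.05), insc being the most expressed at 2.51 to 5.35 CPM.

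Genes whose levels over the 6 libraries were most like the mean of the 8 genes were CG15141 (Pearson r = 0.996), CG42613 (0.995), Oatp58Dc (0.994), eag (0.992) and na (0.990). eag encodes a voltage-gated potassium channel and na a sodium leak channel, both of neurons, and Oatp58Dc an organic anion transporter. This is a description over 6 libraries that share depth and dissection, and 119 of 9119 genes compared had r above 0.9. The mean was taken over log2 CPM centred on each gene's mean, with no scaling for spread. VGlut, with centred values of -1.98 to 2.23, therefore weighed most in it. The r of the other genes with VGlut ran from 0.309 (Syt1) to 0.949 (cpx). Those most like VGlut, a choice made after seeing the data, were Hasp (r = 0.997), CG14989 (0.997), Obp44a (0.996), Gat (0.995) and hig (0.989). Gat encodes a GABA transporter of astrocyte-like glia, and hig and Hasp encode proteins of the synaptic cleft. Obp44a, an odorant-binding protein gene, was the most abundant of these, at 32.5, 16.3, 0.731 CPM across the control libraries, against 0.478, 0.775, 23.4 CPM across the exercised ones. CG14989 had 0 counts in control replicate 3 and exercised replicates 1 and 2, and was at 4.34 and 1.75 CPM in control replicates 1 and 2 and 4.28 CPM in exercised replicate 3.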

How the data were processed

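Poly(A)-selected RNA was sequenced as single-end reads. The deposited counts are raw reads per gene that the authors obtained with FastQC, STAR (release 6) and featureCounts, without pooling replicates. Tool versions, annotation release, strandedness and treatment of multi-mapping or overlapping reads were not given in the sources used here. Symbols and positions came from an Ensembl annotation of the same assembly (17200 of 17477 identifiers).

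The analysis used edgeR 4.0.16 (R 4.3.3): filterByExpr (9127 genes kept), TMM, glmQLFit with robust=TRUE and glmQLFTest, with no covariate beside condition. A gene counted as called at a Benjamini-Hochberg adjusted p under 0.05 over all tested genes. Standard errors are the log2 fold change over the root of the F statistic. Single-gene exact permutation tests cannot go below p = 0.1 with 3 against 3. Steps were tested on simulated data. Alternatives used DESeq2 1.42.0, limma-voom (limma 3.58.1), other scalings and filters, a replicate block and each library left out. No duplicate library was found.

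The 8 genes and the lists were chosen with earlier results of these data known. Named genes are the 8, list members that passed, the most expressed member and members at 0 counts of each list, and the 5 genes most like the mean of the 8. Other genes were named after their values were seen. The labels call the replicates separate samples and the study calls them independent. No sequence is printed, and other experiments of the study were not analysed here.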

Additional observations from a re-analysis of the deposited data

How the results depend on the processing

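Each of the 8 genes was refitted under 15 alternative settings (14 for VGlut, which the stricter filter removed). Ace passed and kept its direction in each, and the other 7 genes did not pass in any of them, except nSyb without exercised replicate 3 (adjusted p = 0.0234). With each library left out in turn, the log2 fold change lay between -4.55 and 0.18 for VGlut, between -0.39 and 0.077 for Syt1 and between -1.11 and -0.42 for nSyb, and 1 to 2 of the 8 genes were called lower. The 8 genes' summed level had a ratio of 0.702 to 0.844. Among the other nervous system genes, 1 to 2 were called higher and 1 to 6 lower with a library left out, against 4 and 4 with all. With the replicate number as a block, 1 of these genes was called higher. Libraries of the same replicate number did not stand out as alike (correlation of deviations -0.222, 0.00292 and -0.240 for numbers 1 to 3). Control replicate 1 went best with exercised replicate 3, at 0.293. The deviations are from means of 3 libraries, which ties these correlations to each other, so they cannot show whether libraries were paired. The block left the calls of the 8 genes as they were. Calls over all tested genes numbered 1714, against 1064 with the block, 1030 without control replicate 2 and 827 without exercised replicate 3. Upper-quartile scaling shifted the median gene to -0.07 and turned 936 higher and 778 lower calls into 773 and 1003. Counts of 1 or 2, as for VGlut in 3 libraries, give any ratio to them a wide counting interval, which leaves out the spread between replicates.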

Other observations

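A few brain hormone genes, named after their values were seen, had counts in only some of the libraries. Ilp2, an insulin-like peptide of the brain's insulin-producing cells, had 33 counts in control replicate 2, 5 in exercised replicate 2 and 0 in the other 4 libraries. Hug, a neuropeptide gene of the subesophageal region, had 9 counts in control replicate 2 and 0 in the other 5 libraries. Control replicate 2, which held less VGlut than control replicate 1, was thus the library with the most Ilp2 and Hug. Burs and Pburs, which encode the subunits of the hormone bursicon of CCAP neurons, had 0 to 4 and 0 to 10 counts per library. Eaat1, a glutamate transporter of glia that was also named after its values were seen, had a log2 fold change of 1.14 that did not pass (adjusted p = 0.0559), at 2.37, 2.72, 0.959 CPM across control replicates 1 to 3, against 4.35, 4.50, 4.51 CPM across exercised replicates 1 to 3.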
